A study of Mus musculus with 24 samples.

Results

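The transcriptome of the cerebellum was compared between 3 heterozygous and 3 control mice at 2 months of age, which are 6 of the 24 libraries of a study of a poly-PR mouse line. The libraries were chosen by the tissue, age and genotype in their labels, and the comparison covers all genes. All 6 mice were on a C57BL/6 background and carried the GFP-PR28 construct, inserted at Rosa26 behind a floxed stop, on 1 allele. The heterozygous mice (2, 4 and 6, labelled OE) also carried Thy1-Cre, so that Cre recombinase removed the stop and neurons made GFP-PR28, a green fluorescent protein fused to a repeat of proline and arginine. The control mice (1, 3 and 5, labelled WT) carried no Thy1-Cre, so they are not free of the construct. The driver acts in many kinds of neurons. In the cerebellum the study found GFP-PR28 mainly in the layer of Purkinje cells and little of it in the granular and molecular layers. Cre itself was abundant in the granular layer too. The transgene has no row in the table of counts, so the genotype labels could not be checked by its own reads. The study added this age to look at gene expression before the loss of Purkinje cells. In the study, brain or cerebellum weight was already lower in heterozygous mice at 2 months.

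Poly-PR is 1 of the dipeptide repeat proteins made from the expanded C9ORF72 repeat of familial amyotrophic lateral sclerosis and frontotemporal dementia, and its arginine-rich chains bind nucleoli and ribosomes. Purkinje cells are the only output neurons of the cerebellar cortex. Glutamate released by parallel fibres acts on their metabotropic receptor mGluR1, a G protein then activates phospholipase C, and inositol trisphosphate (IP3) releases calcium from a large endoplasmic store, which pumps refill. The integrated stress response is a separate program, in which slowed translation initiation favours the transcription factor ATF4, and ATF4 turns on genes for amino acid synthesis, amino acid transport and tRNA charging.

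The libraries held 12835400 to 15858875 gene counts each. All 6 mice had Xist at no more than 0.72 CPM (counts scaled to library size by TMM) and Y-linked reads, although Ddx3y was at 43.7 CPM in control mouse 1 and at 98.6 to 110 CPM in the others. Control mouse 1 differed from the other 5 libraries across the whole transcriptome. The standard deviation of its log2 deviations from the 6-library mean was 0.367 over genes, against 0.158 to 0.180 in the others. Its deviation followed the GC content of the transcript (Spearman's rho 0.442 across genes, against −0.284 to −0.155 in the others). Genes in the lowest decile of GC content, with a median of 39.3%, read 0.49 lower on the log2 scale in this library, and genes in the highest decile, with a median of 59.7%, read 0.13 higher. The biological coefficient of variation of the whole comparison was 0.120 with this library and 0.0312 without it. Calls are therefore given without control mouse 1, with the log2 fold change of all 6 libraries wherever leaving it out moved a called gene by over 1.5 times. Without it, 2 control mice remain, and the difference rests on their spread and that of the 3 heterozygous mice.

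**Figure D1:**
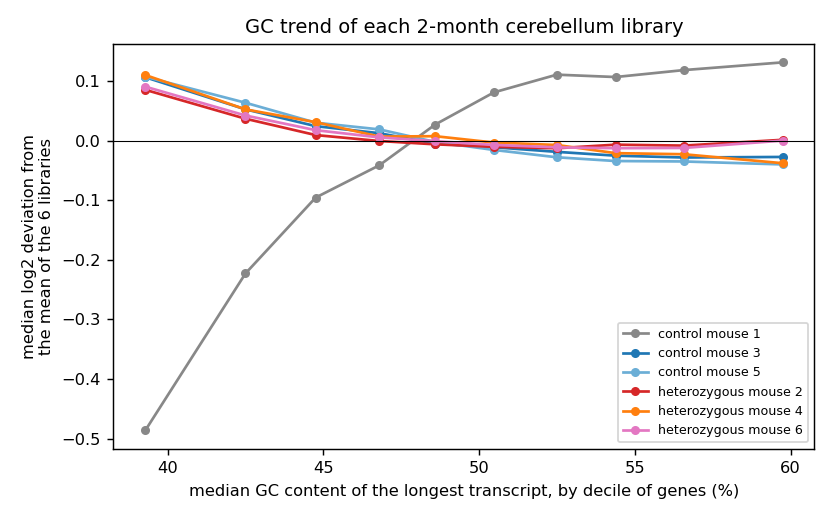
Median log2 deviation of each library from the mean of the 6 libraries (vertical axis), in deciles of the genes ordered by the GC content of their longest transcript (horizontal axis, %). Control mouse 1 runs from −0.49 in the lowest decile to 0.13 in the highest, while the other 5 libraries lie close to each other.

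With all 6 libraries, 16208 genes were tested with edgeR's quasi-likelihood test and Benjamini-Hochberg adjustment, which gave every adjusted p below that does not name DESeq2. To be called, a gene needed an adjusted p below 0.05 together with a log2 fold change of heterozygous over control beyond 0.2 in either direction. None was called (0% higher and 0% lower). The smallest adjusted p was 0.0835, for Gpr26, and 836 genes (5.16%) had an unadjusted p under 0.05. DESeq2 with these libraries gave 11 higher calls (0.0732%) and 34 lower (0.226%), and limma voom, which gave control mouse 1 a weight of 0.0939 and the other libraries weights of 1.30 to 2.11, called 110 higher (0.679%) and 159 lower (0.981%). Without control mouse 1, edgeR called 167 genes higher (1.01% of 16510 tested) and 195 lower (1.18%), 362 in all (2.19%). At an unadjusted p under 0.05, 1163 genes were higher (7.04%) and 1321 lower (8%), which is 15% of those tested. The 167 and 195 calls fell to 66 and 125 when control mouse 3 was also left out, and to 69 and 133 when control mouse 5 was also left out, each of which leaves 1 control mouse that is assumed to vary like the heterozygous mice. The labels do not say whether a library came from 1 animal or from several, so p-values measure the spread between these libraries.

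Among the 167 genes called higher without control mouse 1, 165 were also higher with all 6 libraries (69.05% of all genes kept their direction), and the 3 heterozygous libraries lay above all 3 control libraries for 96 (57.5%; 6.93% of all genes tested). Both fits share 5 libraries and the genes were chosen on those 5, so only the place of control mouse 1 is free in these shares and nothing is read from their excess. Control mouse 1 itself fell on the control side of the midpoint between the other control mice and the heterozygous mice for 66 of the 167 (39.5%), against 45.6% of all genes. After the trend of each library on GC content and transcript length was removed, this was 72 of 167 (43.1%), against 49.6%. Of the 195 genes called lower, 188 of the 194 also tested with 6 libraries were lower there, and for 145 (74.4%) the groups did not overlap (7.3% of all genes), with the same limit. That limit also holds below for each called gene whose groups are said not to overlap. Control mouse 1 fell on the control side for 134 of the 195 (68.7%), and for 154 of 194 (79.4%) after the trend was removed. The third control library thus sided with the other control mice for most genes called lower, and for a smaller share of genes called higher than of all genes. The genes called higher had a median GC content of 52.2% and a median transcript length of 2.83 kb. Those called lower had medians of 49.7% and 4.61 kb, and all genes 49.6% and 3.20 kb.

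The largest rises without control mouse 1 among genes whose groups did not overlap included Necab2, Cks1b (a cell cycle kinase subunit), Chac1, Gpr26 and Atf5. Gpr26, an orphan G protein-coupled receptor, was at 12.3, 11.0 and 11.3 CPM in control mice 1, 3 and 5 and at 23.2, 28.0 and 26.1 CPM in heterozygous mice 2, 4 and 6. That every heterozygous mouse lay above every control mouse was a condition of this choice, so nothing is read from it. With all 6 libraries Gpr26 differed by 1.16 on the log2 scale (standard error 0.109, adjusted p = 0.0835) and by 1.21 without control mouse 1 (adjusted p = 1.30e-10, called in all 12 fits made without that library). AI593442, a protein-coding gene of chromosome 9, was at 42.4, 44.3 and 46.0 CPM in control mice and at 68.3, 76.9 and 73.7 CPM in heterozygous mice. This was a log2 fold change of 0.72 with all libraries (adjusted p = 0.0990) and 0.69 without control mouse 1 (adjusted p = 1.30e-10). Necab2, a neuronal calcium-binding protein, was low, at 1.60 to 3.01 CPM in control mice and 5.61 to 6.39 CPM in heterozygous mice. Its fold change was 1.45 on the log2 scale without control mouse 1 (adjusted p = 1.53e-05), and 1.06 when control mouse 3 was also left out.

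The largest falls without control mouse 1 among genes whose groups did not overlap included Prl2c3, Nlrp10 and Opn3. Opn3, encephalopsin, a light-sensitive opsin also found in brain, was at 16.1, 12.7 and 14.0 CPM in control mice and at 6.09, 5.15 and 6.71 CPM in heterozygous mice, a log2 fold change of −1.24 with all libraries (standard error 0.150, adjusted p = 0.144) and −1.14 without control mouse 1 (adjusted p = 3.21e-07). Opn3 overlaps Chml on the same strand. Nlrp10, a member of the NLR family, was at 4.44, 5.33 and 3.91 CPM in control mice and at 1.13, 0.999 and 1.55 CPM in heterozygous mice, a log2 fold change of −1.88 with all libraries (adjusted p = 0.144) and −1.90 without control mouse 1 (adjusted p = 1.89e-06). Prl2c3, of the prolactin family, fell from 2.40 to 2.94 CPM to 0.502 to 0.768 CPM (log2 fold change −2.05 without control mouse 1, adjusted p = 0.000128), and its reads may be shared with near-identical family members. That the groups did not overlap, with control mouse 1 included, was a condition of this choice, so nothing is read from it. Other called genes in this group were Pcdh20, a protocadherin (−0.79), Trabd2b, a protease that inactivates Wnt ligands (−0.82), Chst8, a sulfotransferase of glycoprotein hormones (−0.96), and Col5a1, a fibrillar collagen (−0.95), as log2 fold changes without control mouse 1.

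Genes of the integrated stress response were called in the higher direction. Of 36 members written for it, 34 passed the filter on low counts. With all 6 libraries, 9 had an unadjusted p under 0.05 and were higher, against 2.43% of all genes, and none was lower. Without control mouse 1, 7 were called higher (background 1.01%) and none lower, and the median log2 fold change of the 34 was 0.18 (29 positive, 5 negative), against 0.00 over all genes tested. The median with all 6 libraries was 0.15 (24 positive, 10 negative). The summed level of the list was 1478 CPM in control mouse 1, inside the heterozygous range of 1424 to 1492 CPM, and 1322 to 1335 CPM in control mice 3 and 5. The 7 were Atf4, Atf5, Chac1, Asns, Psph, Shmt2 and Aldh18a1.

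Promoters are shown for called members of the stress response and tRNA synthetase lists that hold the motif TGATGNAA, the C/EBP-ATF response element through which ATF4 dimers act, and for Hrk, another called gene that holds it. Each runs from 250 bases before to 50 after a RefSeq start on GRCm38.p6, 5′ to 3′ on the gene's strand, and the capitals mark the match on either strand.
Chac1, chr2:119350992-119351291, plus strand: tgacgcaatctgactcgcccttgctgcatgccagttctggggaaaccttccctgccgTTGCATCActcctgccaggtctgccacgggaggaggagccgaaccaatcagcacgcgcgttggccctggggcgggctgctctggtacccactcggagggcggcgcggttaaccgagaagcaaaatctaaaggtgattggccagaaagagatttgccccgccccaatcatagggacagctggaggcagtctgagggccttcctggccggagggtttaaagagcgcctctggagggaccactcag
Asns, chr6:7693160-7693459, minus strand: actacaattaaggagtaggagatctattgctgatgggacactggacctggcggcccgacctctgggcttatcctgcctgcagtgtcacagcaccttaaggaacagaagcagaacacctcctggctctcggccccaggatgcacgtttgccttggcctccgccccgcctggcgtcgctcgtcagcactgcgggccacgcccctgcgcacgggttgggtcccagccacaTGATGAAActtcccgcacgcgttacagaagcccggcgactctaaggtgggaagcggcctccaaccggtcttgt
Iars, chr13:49681880-49682179, plus strand: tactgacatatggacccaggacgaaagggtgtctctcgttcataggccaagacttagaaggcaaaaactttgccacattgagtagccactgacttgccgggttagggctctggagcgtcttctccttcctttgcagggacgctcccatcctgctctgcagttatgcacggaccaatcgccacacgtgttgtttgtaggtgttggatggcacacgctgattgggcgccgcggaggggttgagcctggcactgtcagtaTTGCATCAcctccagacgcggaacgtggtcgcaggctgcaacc
Yars, chr4:129189653-129189952, plus strand: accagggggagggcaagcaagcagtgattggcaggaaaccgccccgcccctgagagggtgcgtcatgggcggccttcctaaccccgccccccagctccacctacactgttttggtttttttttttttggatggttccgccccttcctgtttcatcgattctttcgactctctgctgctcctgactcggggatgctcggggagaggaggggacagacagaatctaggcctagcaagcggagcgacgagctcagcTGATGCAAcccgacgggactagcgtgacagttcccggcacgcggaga
Hrk, chr5:118169514-118169813, plus strand: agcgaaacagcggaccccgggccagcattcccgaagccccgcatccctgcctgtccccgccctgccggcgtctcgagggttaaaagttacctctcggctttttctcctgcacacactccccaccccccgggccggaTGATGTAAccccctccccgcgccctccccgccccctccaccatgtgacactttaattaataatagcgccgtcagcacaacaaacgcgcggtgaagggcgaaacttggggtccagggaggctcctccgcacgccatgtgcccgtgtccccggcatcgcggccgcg

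The motif, searched on both strands, was in 1304 of 32851 RefSeq promoters of this length (3.97%). It was in 9 of the 32 genes of the stress response list that had a promoter in the table (28.1%), in 5 of 11 of the tRNA synthetase list (45.5%) and in 4 of the 9 genes called from both lists. It was in 11 of 130 genes called higher with a promoter (8.46%) and in 4 of 138 called lower (2.90%), against 2.71% of the tested genes. The matches of Chac1 and Iars lie on the opposite strand. Of the 9 stress response genes with a match, only Asns and Chac1 were called. Atf3, Nupr1, Pycr1, Slc7a11, Trib3 and Vldlr were not, and Fgf21 was not tested. Atf4, Atf5, Psph, Shmt2 and Aldh18a1 were called without a match. Both lists were written from general knowledge of the genes, so nothing is read from their shares. A match describes the letters only, and binding was not measured.

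Chac1, an enzyme that degrades glutathione, was at 3.08, 3.06 and 2.30 CPM in control mice and at 6.97, 7.91 and 6.19 CPM in heterozygous mice. The lowest heterozygous mouse was above the highest control mouse, which was a condition for listing Chac1 among the largest rises. With all libraries it differed by 1.31 on the log2 scale (standard error 0.181, adjusted p = 0.172), by 1.37 without control mouse 1 (adjusted p = 7.36e-06) and by 1.13 in the 5-month mice (adjusted p = 0.00269). Atf5, a transcription factor made under the same translational control as Atf4, was at 24.7, 14.7 and 17.2 CPM in control mice and at 37.1, 37.7 and 33.3 CPM in heterozygous mice. Control mouse 1 was the highest of the control mice and still below every heterozygous mouse. Its log2 fold change was 0.94 with all libraries (adjusted p = 0.347) and 1.19 without control mouse 1 (adjusted p = 5.87e-12, called in all 12 fits), the smallest adjusted p of that comparison. Atf5 overlaps Il4i1 and Nup62 on the opposite strand.

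Atf4 was at 148, 118 and 122 CPM in control mice and at 151, 159 and 155 CPM in heterozygous mice. Control mouse 1 lay just under the heterozygous mice and well above the other control mice. The log2 fold change was 0.26 with all libraries (adjusted p = 0.881) and 0.37 without control mouse 1 (adjusted p = 2.10e-08). Asns, which makes asparagine, was at 77.0, 60.5 and 63.0 CPM in control mice and at 74.7, 85.3 and 75.3 CPM in heterozygous mice, so control mouse 1 fell within the heterozygous range (log2 fold change 0.34 without it, adjusted p = 6.86e-05). The groups did not overlap for Shmt2, of mitochondrial one-carbon metabolism (0.26 without control mouse 1), and Aldh18a1, of proline synthesis (0.30). For Psph, the last step of serine synthesis (0.39, and 0.19 with all libraries), control mouse 1 was at 20.4 CPM, above all heterozygous mice. These last 3 had adjusted p values of 0.0189 to 0.0284 and lost their call when control mouse 3, control mouse 5 or heterozygous mouse 2 was also left out, Shmt2 without heterozygous mouse 4 and Aldh18a1 without heterozygous mouse 6 as well (adjusted p up to 0.409). Slc7a3, a carrier of cationic amino acids, and Pycr1, of proline synthesis, had non-overlapping groups and log2 fold changes of 1.32 and 0.92, but adjusted p values of 0.0810 and 0.195, and were not called. Ddit3, which encodes CHOP, was at 18.8 to 19.7 CPM in control mice and 18.3 to 22.6 CPM in heterozygous mice.

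All 17 tested tRNA synthetase genes had a positive log2 fold change without control mouse 1 (median 0.12), and 2 were called higher (background 1.01%), Iars and Yars. Iars, the cytosolic isoleucyl synthetase, was at 64.4, 61.0 and 60.8 CPM in control mice and at 72.7, 72.0 and 75.4 CPM in heterozygous mice (log2 fold change 0.24, adjusted p = 0.677 with all libraries; 0.27, adjusted p = 0.000723 without control mouse 1). Its groups did not overlap. Yars, the tyrosyl synthetase, was at 121 CPM in control mouse 1, above every heterozygous mouse (105 to 115 CPM), and at 92.1 and 96.2 CPM in the other control mice. It differed by 0.22 on the log2 scale without control mouse 1 and by 0.09 with it. The call, at an adjusted p of 0.00236, was lost without control mouse 3 (adjusted p = 0.161) and without heterozygous mouse 4, where it fell inside the fold threshold (0.18). In the fit of all 6 libraries, 13 of the 17 were positive and 4 negative (median 0.06). The summed level of the list was 1695 CPM in control mouse 1, 1477 to 1487 CPM in control mice 3 and 5, and 1608 to 1632 CPM in heterozygous mice, so its place between the groups turned on control mouse 1. The part of the library's GC trend in this was not tested.

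No gene of the list written for the endoplasmic reticulum unfolded protein response was called. Of 22 tested members, 0 were called in either direction without control mouse 1 (4 positive, 18 negative, median −0.05). Over all genes tested 1.01% were called higher and 1.18% lower, so 0 of 22 is near the background and nothing is read from it. With all 6 libraries the median was −0.12 (1 positive, 21 negative). None then had an unadjusted p under 0.05 in the higher direction (background 2.43%) and 2 in the lower (background 2.73%). Hspa5, the chaperone BiP, was at 529, 372 and 379 CPM in control mice and at 356, 320 and 362 CPM in heterozygous mice (log2 fold change −0.30 with all libraries and −0.11 without control mouse 1, adjusted p = 0.881 and 0.133). DESeq2 called 0 members of the list with all 6 libraries (background 0.0732% higher and 0.226% lower). Atf4, Atf5, Chac1 and Ddit3 were kept in the stress response list and are not among the 22. The paper takes the rise of Chac1 and Atf5 to reflect endoplasmic reticulum stress, which it proposes to be early. That reading was not tested here.

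Of 14 tested p53 targets and BH3-only genes, 3 were called higher without control mouse 1 (background 1.01%) and none lower. Hrk, a BH3-only activator of neuronal apoptosis, was at 10.3, 7.59 and 8.44 CPM in control mice and at 14.7, 18.7 and 13.0 CPM in heterozygous mice. The groups did not overlap. Its log2 fold change was 0.82 with all libraries (adjusted p = 0.457), 0.95 without control mouse 1 (adjusted p = 2.35e-05) and 1.12 at 5 months (adjusted p = 0.00133). In a single fit of the 11 cerebellum libraries of both ages, its adjusted p was 0.0614. Ccng1, cyclin G1, was at 66.2 to 81.4 CPM in control mice and at 92.4 to 98.9 CPM in heterozygous mice (log2 fold change 0.25 without control mouse 1, adjusted p = 0.000490). Phlda3, a p53 target that restrains Akt, overlapped between the groups, since control mouse 1 was at 14.2 CPM (log2 fold change 0.49, adjusted p = 0.0338; 0.28 with it). Its call was lost without any 1 of control mice 3 and 5 and heterozygous mice 4 and 6 (adjusted p up to 0.381).

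Among genes of Purkinje cells, 5 of 22 tested identity genes were called lower without control mouse 1 (background 1.18%) and none higher (median log2 fold change −0.06), and with all 6 libraries 6 had an unadjusted p under 0.05 and were lower (background 2.73%, median −0.09). In bulk tissue, fewer cells of a type and less RNA per cell cannot be told apart. Rgs8, a regulator that speeds the shutdown of G proteins, was at 1678, 1363 and 1327 CPM in control mice and at 1065, 951 and 1013 CPM in heterozygous mice. Its groups were well apart. The log2 fold change was −0.53 with all libraries (standard error 0.102, adjusted p = 0.352) and −0.41 without control mouse 1 (adjusted p = 1.06e-08, called in all 12 fits). Ppp1r17, a phosphatase inhibitor that is a substrate of cGMP-dependent kinase, was at 293, 220 and 214 CPM in control mice and at 185, 162 and 171 CPM in heterozygous mice (−0.33 without control mouse 1, adjusted p = 4.41e-06). Homer3, a postsynaptic scaffold of mGluR1 (−0.22, and −0.35 with all libraries), was also called lower, and moved inside the fold threshold without heterozygous mouse 4 (−0.19). Atp2a3 is described with the calcium store.

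Other identity genes moved little. Calb1, calbindin, was at 1207, 1160 and 1163 CPM in control mice and at 1158, 1127 and 1133 CPM in heterozygous mice (log2 fold change −0.03 without control mouse 1, adjusted p = 0.759). Itpr1, the IP3 receptor, differed by −0.04 (adjusted p = 0.557), and by −0.10 with all libraries. Car8, a protein that binds Itpr1, was at 1535, 1696 and 1612 CPM in control mice and at 1474, 1437 and 1472 CPM in heterozygous mice, at −0.18 (adjusted p = 5.99e-05), inside the fold threshold. Pcp2, a Purkinje cell modulator of Gi and Go proteins, was 319 CPM in control mouse 1, 206 to 209 CPM in the other control mice and 225 to 244 CPM in heterozygous mice, so its sign turned with that library (−0.05 with it, 0.19 without it). Of the markers of zebrin stripes, Plcb3 and Gabbr2 from the zebrin-positive list were called lower, while Aldoc and Slc1a6 were not. From the zebrin-negative list Nefh, the heavy neurofilament, was called higher (0.27, adjusted p = 3.68e-06; 0.15 with all libraries), although control mouse 1, at 215 CPM, lay above all heterozygous mice (202 to 205 CPM).

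**Figure D2:**
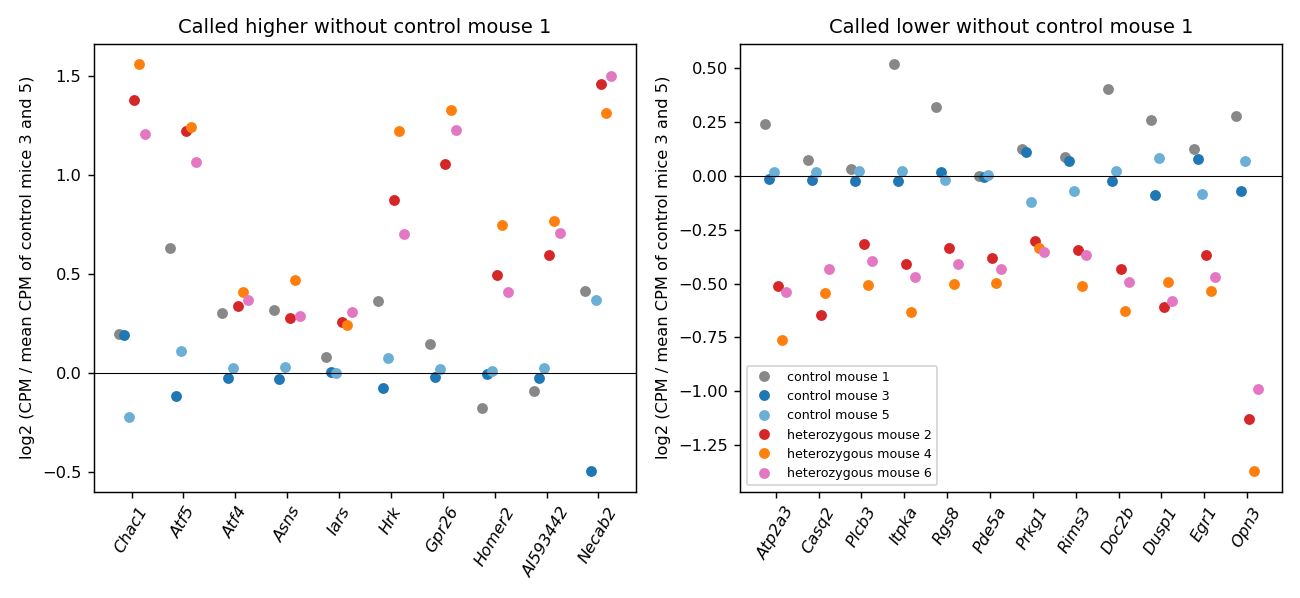
CPM of each library over the mean CPM of control mice 3 and 5, on a log2 scale (vertical axis), for 10 genes called higher and 12 called lower without control mouse 1; each point is 1 library. The genes shown are a chosen part of the calls. In the right panel all 3 heterozygous mice lie below all 3 control mice for every gene shown. This held for 145 of all 195 genes called lower, and not for Ryr3 and Unc13c, so nothing is read from it. In the left panel control mouse 1 comes close to or among the heterozygous mice for Atf4 and Asns.

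The steps between mGluR1 and the calcium store held more calls. Of 19 tested genes of G proteins, phospholipases and IP3 turnover, 6 were called lower without control mouse 1 (background 1.18%) and none higher, and 6 had an unadjusted p under 0.05 with all libraries and were lower (background 2.73%). The median of the list was −0.12 with all libraries and −0.01 without control mouse 1. Plcb3, the phospholipase C of zebrin-positive Purkinje cells, was at 81.3, 78.3 and 80.9 CPM in control mice and at 63.9, 56.0 and 60.4 CPM in heterozygous mice. Its log2 fold change was −0.41 with all libraries (adjusted p = 0.295) and −0.40 without control mouse 1 (adjusted p = 2.36e-06). Plcb4, the isoform of the other stripes, was at 320 CPM in control mouse 1, 458 to 459 CPM in control mice 3 and 5 and 450 to 464 CPM in heterozygous mice (0.15 with all libraries, 0.00 without control mouse 1, not called). Itpka, which phosphorylates IP3, was at 74.2, 51.0 and 52.7 CPM in control mice and at 39.0, 33.4 and 37.4 CPM in heterozygous mice (−0.69 with all libraries, adjusted p = 0.457; −0.49 without control mouse 1, adjusted p = 1.66e-06). For both Plcb3 and Itpka the groups did not overlap.

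The list also holds genes of cGMP turnover, of which Pde5a and Prkg1 were called lower and the guanylyl cyclase subunits Gucy1a1 (0.00) and Gucy1b1 (0.12), which make cGMP, were not called. Pde5a, which hydrolyses cGMP, was at 143, 142 and 143 CPM in control mice and at 109, 101 and 106 CPM in heterozygous mice. The 3 control mice differed by less than 2 CPM. The log2 fold change was −0.44 with all libraries (standard error 0.0660, adjusted p = 0.196) and −0.43 without control mouse 1 (adjusted p = 1.65e-09, called in all 12 fits). Prkg1, the cGMP-dependent kinase, was at 25.7, 25.4 and 21.6 CPM in control mice and at 19.1, 18.7 and 18.4 CPM in heterozygous mice (−0.33 without control mouse 1, adjusted p = 0.0291), and its call was lost without control mouse 3 (adjusted p = 0.532) or any 1 heterozygous mouse (−0.35 to −0.32).

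All 13 tested genes of calcium store release and uptake had a negative log2 fold change without control mouse 1 (median −0.07), and 3 were called lower (background 1.18%). In the 6-library fit 10 were negative and 3 positive (median −0.14). Atp2a3, the store pump SERCA3, which in cerebellum marks Purkinje cells, was at 346, 290 and 296 CPM in control mice and at 206, 173 and 201 CPM in heterozygous mice. The groups were far apart. The log2 fold change was −0.69 with all libraries (standard error 0.101, adjusted p = 0.189) and −0.59 without control mouse 1 (adjusted p = 0.00790). Its call was lost with only 1 of control mice 3 and 5 in the fit (adjusted p up to 0.105), where the fold change was −0.61 to −0.58. Casq2, the calcium-binding protein inside the store, was at 39.7, 37.2 and 38.2 CPM in control mice and at 24.1, 25.9 and 27.9 CPM in heterozygous mice (−0.56 with all libraries, adjusted p = 0.199; −0.54 without control mouse 1, adjusted p = 5.33e-06). Ryr3, a ryanodine receptor, was at 22.6 CPM in control mouse 1, below all heterozygous mice (31.4 to 38.9 CPM), and at 45.6 and 47.6 CPM in the other control mice. Its call (−0.40, adjusted p = 0.000239; −0.14 with all libraries) thus depends on leaving that library out.

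Of 10 tested calcium buffers and extruders, 2 were called lower (background 1.18%), the sodium-calcium exchangers Slc8a2 (−0.28, adjusted p = 3.05e-06) and Slc8a3 (−0.28, adjusted p = 0.00294). Slc8a2 was at 197, 183 and 179 CPM in control mice and at 155, 144 and 148 CPM in heterozygous mice, with no overlap. The call of Slc8a3 was lost without control mouse 3 or 5 and in a fit with the 5-month libraries (adjusted p up to 0.114). Of 13 genes of calmodulin and its kinases, Camk2a (−0.30, adjusted p = 0.00109) and Camkk2 (−0.21, adjusted p = 0.000230) were called lower (background 1.18%), and lost the call without control mouse 5 and control mouse 3 respectively (adjusted p up to 0.0756 for Camk2a in these, and 0.0642 for Camkk2, which was also inside the fold threshold without heterozygous mouse 4). Of 15 voltage-gated calcium channel genes, none was called without control mouse 1 and 1 had an unadjusted p under 0.05 with all libraries. Of 14 glutamate receptor and Homer genes, Homer3 was called lower (background 1.18%) and Homer2 higher (background 1.01%). Homer2, the scaffold more abundant in granule cells, was at 25.8, 29.0 and 29.3 CPM in control mice and at 41.0, 49.0 and 38.7 CPM in heterozygous mice (0.55 without control mouse 1, adjusted p = 5.52e-05), and in a fit of all cerebellum libraries but control mouse 1 its adjusted p was 0.326.

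**Figure D3:**
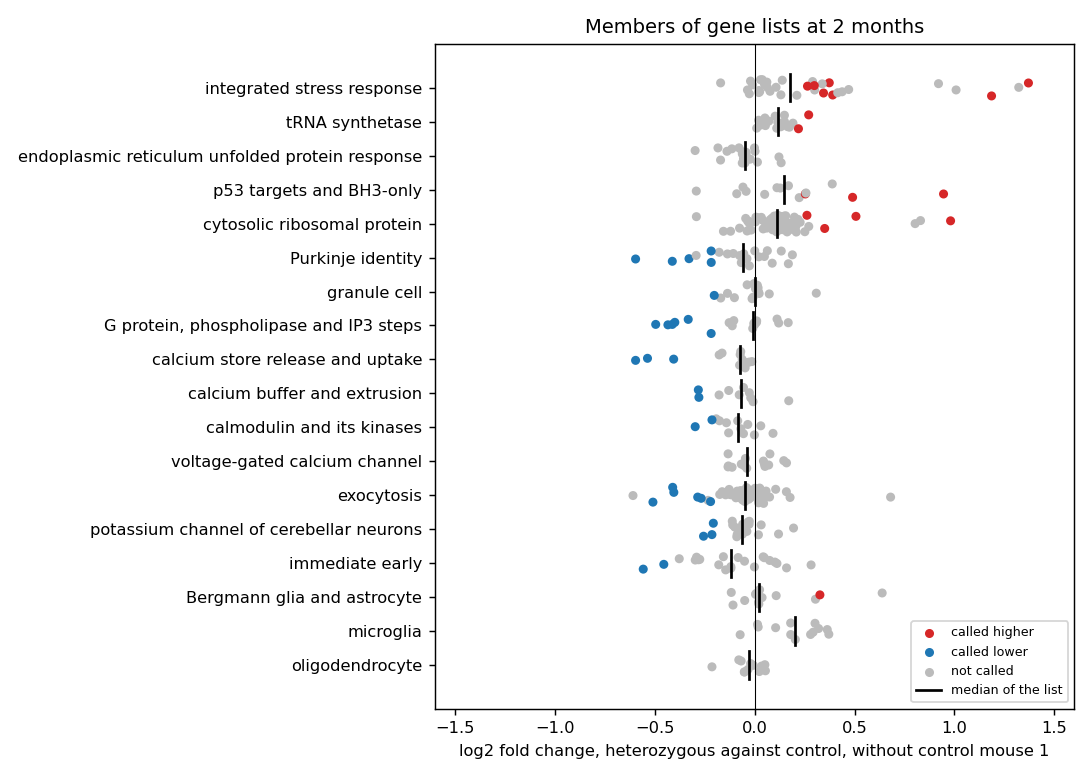
Log2 fold change without control mouse 1 (horizontal axis) of each tested member of 18 gene lists; each point is 1 gene, coloured by its call, and the bar is the median of the list. Called members of the stress response, tRNA synthetase and p53 lists lie to the right of 0, and those of the calcium, exocytosis, potassium channel and immediate early lists to the left.

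Of 58 tested genes of exocytosis, 6 were called lower without control mouse 1 (background 1.18%) and none higher (median log2 fold change −0.05). With all libraries 11 had an unadjusted p under 0.05, all lower (background 2.73%, median −0.10). Rims3, a small active zone protein, was at 400, 393 and 358 CPM in control mice and at 296, 264 and 291 CPM in heterozygous mice. The log2 fold change was −0.44 with all libraries (standard error 0.0786, adjusted p = 0.295) and −0.40 without control mouse 1 (adjusted p = 0.000439). Doc2b, a calcium sensor for spontaneous release, was at 153, 114 and 118 CPM in control mice and at 85.9, 75.1 and 82.6 CPM in heterozygous mice (−0.66 with all libraries, adjusted p = 0.297; −0.51 without control mouse 1, adjusted p = 1.15e-09, called in all 12 fits). In both genes the groups did not overlap. Syt6, Sv2c and Prrt2, proteins of vesicle release, were called lower at −0.41, −0.27 and −0.28 and also had non-overlapping groups, but each lost its call without control mouse 5 (adjusted p up to 0.274 over the fits of the 3). Unc13c, a vesicle priming factor (−0.22, adjusted p = 5.96e-05; −0.10 with all libraries), overlapped because control mouse 1 was at 164 CPM.

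A list of 15 genes that the study named in any of its tissues, ages or assays was also followed. Rims3, Doc2b, Chac1 and Atf5 were named with the 2-month cerebellum in view, so their directions here are no independent evidence. The study called genes in both directions at this age with DESeq2, and reported the fall of Rims3 and Doc2b by quantitative PCR too. Of the 14 list members tested, Chac1 and Atf5 were called higher (background 1.01%) and Rims3 and Doc2b lower (background 1.18%) without control mouse 1. Camk4, a calmodulin kinase of granule cells, was at 755 CPM in control mouse 1 and at 1330 and 1231 CPM in the other control mice, against 1143 to 1189 CPM in heterozygous mice (0.08 with all libraries, −0.13 without control mouse 1, adjusted p = 0.00824, inside the fold threshold). Unc13a, a vesicle priming factor, was at 316 to 343 CPM in control mice and at 264 to 312 CPM in heterozygous mice, with an adjusted p of 0.105. The log2 fold changes without control mouse 1 of the synaptic genes Grin2a, Kcnj9 and Syt2 were −0.14, −0.11 and −0.05, and none was called.

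Of 22 tested immediate early genes, which follow neuronal activity within minutes, 2 were called lower without control mouse 1 (background 1.18%), and 7 had an unadjusted p under 0.05 with all libraries, all lower (background 2.73%, median −0.13). Dusp1, a phosphatase of MAP kinases, was at 69.3, 54.4 and 61.4 CPM in control mice and at 38.0, 41.2 and 38.8 CPM in heterozygous mice (−0.65 with all libraries, adjusted p = 0.199; −0.56 without control mouse 1, adjusted p = 6.50e-08). Egr1, a zinc finger transcription factor, was at 45.7, 44.4 and 39.6 CPM in control mice and at 32.5, 29.0 and 30.4 CPM in heterozygous mice (−0.45 without control mouse 1, adjusted p = 4.03e-05). The groups of both genes were apart, but in a fit of all cerebellum libraries but control mouse 1 each had an adjusted p of 0.286. Fos was at 34.1, 21.2 and 29.0 CPM in control mice and at 19.3, 21.2 and 21.3 CPM in heterozygous mice, which overlapped.

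Potassium channels and GABA receptors were called lower at single genes. Of 19 potassium channels of cerebellar neurons, 3 were called lower (background 1.18%) and none higher. Kcna1, a delayed rectifier subunit, was at 468, 492 and 480 CPM in control mice and at 422, 409 and 424 CPM in heterozygous mice (−0.21 without control mouse 1, adjusted p = 8.37e-06), and came inside the fold threshold without heterozygous mouse 4. Of 17 GABA and glycine receptor genes, the GABA-B subunits Gabbr1 and Gabbr2 were called lower (background 1.18%). The vesicular carrier Slc32a1 was called higher (background 1.01%). Gabbr1 was at 884, 761 and 726 CPM in control mice and at 607, 564 and 619 CPM in heterozygous mice (−0.41 with all libraries, adjusted p = 0.484; −0.32 without control mouse 1, adjusted p = 7.23e-08). For Slc32a1, control mouse 1 was at 142 CPM, above the heterozygous mice (112 to 122 CPM). It differed by 0.21 without that library and 0.03 with it, and its call was lost again without control mouse 3 or 5 (adjusted p up to 0.0800).

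Of 17 secreted growth factors and their regulators, Nrk and Fgf7 were called higher (background 1.01%), and Gdf11 and Ltbp2 lower (background 1.18%). Nrk is a kinase of the germinal centre kinase family kept with this list, and Fgf7 is a fibroblast growth factor. Nrk was at 44.2, 73.3 and 72.2 CPM in control mice and at 107, 109 and 102 CPM in heterozygous mice (0.55 without control mouse 1, adjusted p = 1.30e-10, called in all 12 fits). Ltbp2, which binds microfibrils and latent growth factor, was at 51.6, 63.0 and 72.0 CPM in control mice and at 43.5, 36.6 and 37.9 CPM in heterozygous mice (−0.66 with all libraries, adjusted p = 0.360; −0.77 without control mouse 1, adjusted p = 7.17e-09). Gdf11, of the TGF-beta family, was at 24.2 to 32.3 CPM in control mice and at 15.8 to 20.2 CPM in heterozygous mice (−0.60 without control mouse 1, adjusted p = 0.000239). The call of Fgf7 (0.34) was lost when any further library was left out (adjusted p up to 0.374). Igfbp5, a binding protein of insulin-like growth factors, was at 327, 295 and 283 CPM in control mice and at 178, 147 and 198 CPM in heterozygous mice. DESeq2 called it with all libraries (log2 fold change −0.79 in edgeR, DESeq2 adjusted p = 1.69e-05), and edgeR did not without control mouse 1 (adjusted p = 0.167). Ostn, osteocrin, was at 0.460 to 0.716 CPM in control mice and at 1.44, 5.15 and 2.64 CPM in heterozygous mice, with an adjusted p of 0.141 without control mouse 1.

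Nucleolar and cytosolic ribosomal protein genes were called only higher without control mouse 1 (background 1.01% higher and 1.18% lower). Of 24 nucleolar and rRNA genes, Nop2, an rRNA methyltransferase, was called higher (0.36, adjusted p = 0.00509; 0.24 with all libraries) and none lower, and its call was lost without control mouse 3 (adjusted p = 0.143). Of 81 tested cytosolic ribosomal protein genes, 4 were called higher, Rpl21, Rps10, Rps21 and Rps26, and none lower. Rps10 (0.35), Rps21 (0.51) and Rps26 (0.26) overlapped between the groups, were at 0.16, 0.05 and 0.13 with all libraries, and lost their calls without control mouse 3. The median of the list was −0.04 with all libraries and 0.11 without control mouse 1, and its summed level was 5756 CPM in control mouse 1, 4158 to 4234 CPM in the other control mice and 4475 to 4682 CPM in heterozygous mice, so the direction of the family turned with 1 library. Rpl21, at 8.06 to 10.6 CPM in control mice and 14.8 to 19.0 CPM in heterozygous mice, had non-overlapping groups (0.98 without control mouse 1, adjusted p = 8.99e-07), was at −0.27 at 5 months, and may share reads with processed copies.

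Markers of other cells were compared in the same way, against backgrounds of 1.01% called higher and 1.18% called lower without control mouse 1. Of 16 granule cell markers, Slc17a7, the vesicular glutamate carrier, was called lower (−0.20, adjusted p = 0.000418) and none higher, and it lost the call without control mouse 3 (adjusted p = 0.0635) or heterozygous mouse 4. Of 13 markers of Bergmann glia and astrocytes, Fabp7 was called higher (0.33, adjusted p = 0.0296; 0.15 with all libraries), with control mouse 1 at 33.8 CPM inside the heterozygous range and the call lost without control mouse 3 or 5 or heterozygous mouse 6, and Gfap was not called (adjusted p = 0.565). Of 13 microglial markers none was called in either direction, 12 were positive without control mouse 1 (median 0.20) and 10 with it (median 0.08), and their summed level was 207 CPM in control mouse 1, 164 to 165 CPM in control mice 3 and 5 and 177 to 197 CPM in heterozygous mice. At 5 months 8 of them were called higher, against a background of 2.37% at that age. Of 12 oligodendrocyte markers, 7 molecular layer interneuron markers, 6 Golgi and unipolar brush cell markers, 6 choroid plexus markers and 5 blood markers, none was called. Of 12 markers of vessels and meninges, Vtn, vitronectin, was called higher (0.20, adjusted p = 0.0329) without control mouse 1 and not with it (−0.03). Of 10 markers of brainstem and midbrain neurons only Th was high enough to test. Th was at −0.60 without control mouse 1 (adjusted p = 0.105) and −0.87 with it (edgeR unadjusted p = 0.0164), and was not called. The summed level of these 10 was low, at 7.26 to 12.7 CPM in control mice and 3.99 to 6.77 CPM in heterozygous mice. The summed level of the Purkinje identity list was 12331 to 13718 CPM in control mice and 11282 to 11750 CPM in heterozygous mice, and that of the granule cell list 8368 to 8760 and 8428 to 8529.5 CPM. None of 16 transcripts of the mitochondrial genome was called. Purkinje and granule cell markers were present in every library, as the tissue label requires. The part of these markers in the results above was not tested.

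The same contrast was measured in 6 other mice at 5 months. Of the 166 genes called higher at 2 months without control mouse 1 that were tested there, 156 were higher (94.0%) and 73 were also called higher, against a background of 2.37%. Of 194 called lower, 188 were lower (96.9%) and 114 were called lower, against a background of 2.72%. None was called in the opposite direction at 5 months. Over all genes tested at both ages, 65.5% had the same sign. Both comparisons also shared a trend on transcript length. Spearman's rho of the log2 fold change with length was −0.169 at 2 months without control mouse 1 and −0.169 at 5 months. With all 6 libraries at 2 months it was 0.056. The part of this trend in the agreement between the ages was not tested. The median log2 fold change of the genes called higher was 0.35 at 2 months and 0.26 at 5 months, and that of the genes called lower −0.32 at both ages. Atp2a3 (−0.63), Casq2 (−0.43), Plcb3 (−0.40), Itpka (−0.45), Rgs8 (−0.57), Pde5a (−0.46) and Doc2b (−0.36) were called lower at 5 months, and Atf4 (0.39), Asns (0.44) and Gpr26 (1.39) higher. Iars (0.06) and Nop2 (0.02) were not called there. The difference between the ages was tested as an interaction term, which no gene passed with all 12 cerebellum libraries (0 of 16845, and 646 at an unadjusted p under 0.05) and 3 passed without control mouse 1.

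**Figure D4:**
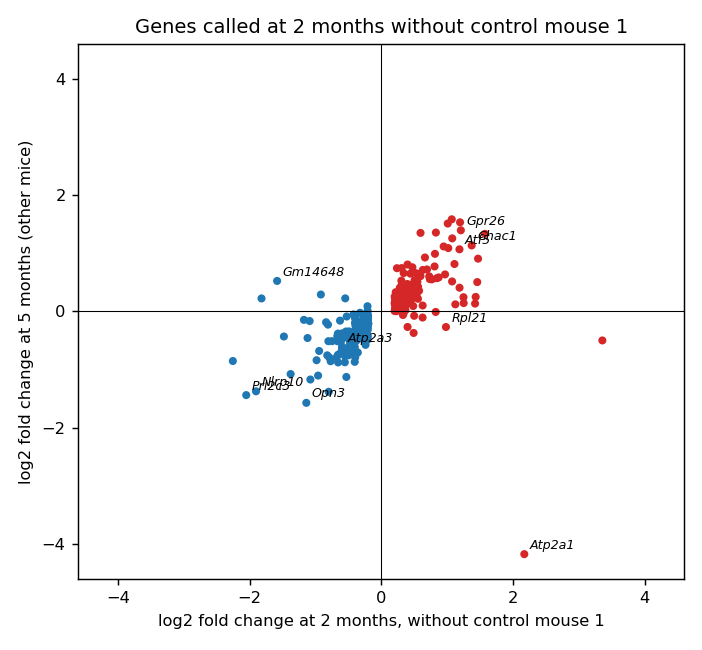
Log2 fold change at 2 months without control mouse 1 (horizontal axis) and at 5 months in other mice (vertical axis) of the genes called at 2 months without control mouse 1 (red higher, blue lower). Most lie at lower left and upper right, 156 of 166 and 188 of 194 having the same sign; Rpl21, Gm14648 and Atp2a1 are among those that do not, and Gm16867, at 0 counts in control mice 3 and 5, is off the plot.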

How the data were processed

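Total RNA of mouse cerebellum was sequenced by the authors as paired-end reads from NEBNext Ultra libraries. Per the labels, reads were trimmed with Trimmomatic 0.30, aligned to mm10 with HISAT2 2.0.1 and counted with HTSeq 0.6.1. The deposited values are raw read counts per gene and library, not normalized and not pooled. The counting mode and strand setting are not given in the sources used here, so counts of overlapping genes are uncertain. Of 46078 genes, 45229 (98.2%) were matched by identifier to GENCODE M21 on GRCm38, which gave symbols, positions, lengths and GC contents. The other table of the series, of cortex and spinal cord, was not used.

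Counts were normalized by TMM and genes kept by filterByExpr (minimum count 10, minimum total count 15) in edgeR 4.0.16 under R 4.3.3. Groups were compared by quasi-likelihood F tests (robust dispersion estimates) and p-values adjusted by Benjamini-Hochberg across every tested gene, in 2 groups of 3 libraries. The main fit holds all 6 libraries and the second leaves out control mouse 1. The thresholds are those of the study, which used DESeq2. Alternatives were DESeq2 1.42.0, its size factors, limma 3.58.1 voom with library weights, no filter, no fold change threshold, non-robust dispersions, a loess offset for GC content and length (span 0.4), all cerebellum libraries of both ages in 1 fit, and leaving out each library in turn. Setting control mouse 1 beside the other libraries after its GC trend was removed was added after the data were seen. Group overlap was judged on CPM. With 3 libraries a group, an exact permutation test of a single value cannot go below p = 0.1, so none is given.

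Genes were named by rule: those the study named, the 10 of smallest p in each direction with 6 libraries, the 12 of largest change in each direction among calls without control mouse 1 with groups that did not overlap and a mean of at least 1 CPM, and from each list the called members and up to 4 of the most expressed. From these, the text gives the ones whose function is known, and genes outside the rule were picked with their values in view. The 34 lists and the choice of libraries were made with earlier results of these data known. Lists are described by counts and medians, without a test of the list. Some genes that the counts include are not reported here by name. The procedure was tested on simulated data. Plots were made with Python 3.11.15 and matplotlib 3.10.9.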

Additional observations from a re-analysis of the deposited data

Results flagged for a closer look

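Without control mouse 1, the difference between the genotype effects at 5 and at 2 months passed edgeR's interaction test with Benjamini-Hochberg adjustment for 3 of 17177 genes, and with that library for 0 of 16845. B2m, the light chain of class I histocompatibility molecules, differed by 0.647 on the log2 scale (5 minus 2 months, adjusted p = 0.00234). It was at 80.9, 62.8 and 61.5 CPM in control mice and at 63.1, 71.7 and 62.8 CPM in heterozygous mice at 2 months, with a log2 fold change of 0.08 without control mouse 1 and 0.73 at 5 months. Pclo, the active zone protein piccolo, differed by −0.303 (adjusted p = 0.0398), with log2 fold changes of −0.04 and −0.34, and control mouse 1, at 323 CPM, was far below the other 2-month libraries (575 to 610 CPM). Gm3294, a long noncoding RNA that overlaps Mir129-1, differed by −0.698 (adjusted p = 0.0334), with log2 fold changes of −0.11 and −0.81.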

How the results depend on the processing

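With all 6 libraries, the count of 0 genes called higher and 0 lower stayed at 0 with DESeq2 size factors, no fold change threshold, non-robust dispersions and the GC and length offset. It was 11 and 34 with DESeq2, 6 and 20 with no filter, 9 and 38 with all cerebellum libraries of both ages in 1 fit, and 110 and 159 with limma voom weights. Leaving out 1 library gave 0 to 167 higher and 0 to 195 lower, and only the fit without control mouse 1 called any gene. Without control mouse 1, the counts of 167 and 195 became 49 and 118 with DESeq2, 60 and 110 with all other cerebellum libraries, and 225 and 374 with no fold change threshold, and 66 to 134 and 125 to 185 when a second library was left out. The lower members at an unadjusted p under 0.05 went from 6 to 11 in the Purkinje identity list and from 11 to 24 in the exocytosis list without control mouse 1. Genes passing the interaction test went from 0 to 3. Of the named genes, Vtn changed sign and passed both thresholds, at 0.20 without control mouse 1 (edgeR adjusted p = 0.0329) against −0.03 with it, and ranged from −0.15 to 0.20 when 1 library was left out. Pcp2 (−0.05 to 0.19) and Camk4 (0.08 to −0.13) also changed sign at an adjusted p under 0.05, inside the fold threshold. The cause of these changes was not tested. No paired analysis was possible because the control libraries are numbered 1, 3 and 5 and the heterozygous libraries 2, 4 and 6, with no number shared.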

Other observations

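Some genes of the interferon response were called higher without control mouse 1, and were picked out after their values were seen. Ifit1, an interferon-induced RNA sensor, was at 7.73, 2.46 and 1.92 CPM in control mice and at 3.27, 6.45 and 4.39 CPM in heterozygous mice, so control mouse 1 was the highest of all 6. Its log2 fold change was 1.07 without that library (edgeR adjusted p = 0.0134) and 0.20 with it. Ifitm3, a barrier to virus entry, was at 8.59, 4.73 and 4.22 CPM in control mice and at 6.97, 9.14 and 6.32 CPM in heterozygous mice (0.73 without control mouse 1, 0.35 with it). Trim21, an antibody receptor of the cytosol (1.07), Lgals3bp (0.59), Ly6e (0.29), Rnf213 (0.34) and Ifi27 (0.40) were called too. With control mouse 1 included each overlapped, and these log2 fold changes were 0.61, 0.33, 0.12, 0.19 and 0.26 in the same order. Gbp7, a guanylate-binding protein, did not overlap, at 2.53 to 3.87 CPM in control mice and 4.33 to 5.30 CPM in heterozygous mice (0.73).

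Gt(ROSA)26Sor, the noncoding transcript of the locus that holds the construct, was at 50.5, 48.2 and 67.6 CPM in control mice and at 37.9, 40.6 and 33.2 CPM in heterozygous mice. Its log2 fold change was −0.57 with all libraries and −0.63 without control mouse 1 (edgeR adjusted p = 0.320), and it was not called. It overlaps Thumpd3 on the opposite strand. Thy1, the gene whose promoter drives Cre, was at 309, 238 and 231 CPM in control mice and at 255, 242 and 244 CPM in heterozygous mice.

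Genes called lower without control mouse 1 and outside the lists, also picked after their values were seen, included Grid2ip, a scaffold of the delta2 glutamate receptor, at 76.6, 90.7 and 84.7 CPM in control mice and 69.8, 63.3 and 67.3 CPM in heterozygous mice (−0.39), and the neuronal pentraxins Nptx1 (−0.31) and Nptxr (−0.33). In each of these 3 genes the groups did not overlap. The same held for 74.4% of the genes called lower and 7.3% of all genes, so nothing is read from it.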
